A study of Mus musculus with 12 samples.

Results

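The interferon response and MHC class I genes described here are 36 mouse genes chosen by name as rows of a retinal count table that lists 35976 genes. They fall into 8 sensors and transcription factors of the interferon response, 20 antiviral effectors that interferon induces, and 8 genes of peptide presentation on MHC class I. Of the 36, 34 had at least 1 read in some library, 20 were above 3 reads in every library, 14 had reads but fell to 3 or fewer somewhere, and Isg15 and Oas1a had no read in any library. Of all genes listed, 24484 had a read and 12327 were above 3 reads in every library. The 20 members above 3 reads throughout were all 8 sensors and transcription factors, 7 of the 20 effectors and 5 of the 8 MHC class I genes.

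The libraries were made from whole retinas of C57BL/6 mice and of caspase-1 knockout mice (Casp1 encodes the protease of the inflammasome), either kept in room air (normoxia) or taken 3 days into the relative hypoxia of oxygen-induced retinopathy (OIR). In OIR, newborn mice breathe 75% oxygen from postnatal day 7 to 12, the growing retinal vessels regress, and the retina is left short of oxygen once the pups return to room air. The WT retinas, both normoxia and OIR, were collected at postnatal day 15. There were 3 libraries in each of 4 groups, 2 of them WT (WT normoxia and WT OIR) and 2 with the label Casp1 KO (Casp1 KO normoxia, Casp1 KO OIR). The genotype of the first pair is given as WT, the age and oxygen exposure of the caspase-1 knockout pups are not stated in the sources used here, and neither is the number of animals behind each library, so a p-value measures the spread between these libraries, which may be technical.

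QuantSeq primes on the poly(A) tail and reads the last bases of each transcript, and levels are given as CPM, the reads of a gene per 1000000 reads of the library after TMM scaling. Libraries held 3391203 to 5657873 counted reads, except WT normoxia replicate 2 with 22815830, which was 4.03 times the next largest. All 10 rod markers were above 3 reads in every library, with a summed level of 52128 to 60726 CPM, which checks the tissue. Casp1 itself had 7 reads over the 6 libraries labelled WT and 126 over the 6 labelled Casp1 KO. This is against the direction of the labels, and in OIR Casp1 passed as higher with the label Casp1 KO (adjusted p = 0.032, edgeR). Where these reads lie relative to the deleted stretch of Casp1 was not tested, and neither was whether the labels are right. The groups are called by their labels throughout, and the direction of every difference between genotypes rests on them. WT OIR replicate 3 differed from its fellow replicates more than replicates of any other pair did, and calls of members that change without it or without the deepest library are given both ways.

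Interferons are secreted when sensors such as RIG-I (Ddx58) and MDA5 (Ifih1) meet viral or misplaced RNA, and they act through receptors, JAK kinases and the STAT and IRF transcription factors. Type I interferon brings a complex that holds STAT2 and IRF9 to the interferon-stimulated response element (ISRE), and interferon gamma acts through the gamma-activated site (GAS). Among the genes switched on are antiviral effectors and the machinery that cuts, transports and loads peptides onto MHC class I, which displays them to CD8 T cells. In the healthy retina MHC class I is low, and microglia are among the cells known to raise it.

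RefSeq promoter windows on GRCm38.p6, from 250 bases before to 50 after a start site, were at hand for 30 of the 36 genes. The ISRE core GAAANNGAA, or its reverse complement TTCNNTTTC, was in the windows of 16 of the 30 (53.3%), beside 9.76% of all 27025 genes with a window. The GAS letters TTCNNNGAA were in 8 of the 30 (26.7%), beside 9.55% of all genes. Both were searched on both strands, and matches may overlap one another. Shown first are stretches of the 3 genes that rose in OIR in some comparison and had a match before the start site, and then 3 genes with several matches, of which Ifit1 and Bst2 did not pass the test and Isg15, without a read, was not tested. Capitals mark the matches, and each sequence reads 5′ to 3′ along the gene's own strand:
B2m (chr2:122147528-122147576, plus strand, 1 ISRE core): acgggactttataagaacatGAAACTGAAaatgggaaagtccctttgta
Ifitm2 (chr7:140955979-140956027, minus strand, 1 ISRE core): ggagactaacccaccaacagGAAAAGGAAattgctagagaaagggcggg
Psmb8 (chr17:34198078-34198126, plus strand, 1 GAS): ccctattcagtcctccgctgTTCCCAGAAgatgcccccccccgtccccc
Ifit1 (chr19:34640760-34640833, plus strand, 3 ISRE cores): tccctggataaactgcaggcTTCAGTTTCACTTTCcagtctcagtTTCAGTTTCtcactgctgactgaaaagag
Isg15 (chr4:156200856-156200916, minus strand, 3 ISRE cores): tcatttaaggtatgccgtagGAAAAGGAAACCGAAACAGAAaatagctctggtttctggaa
Bst2 (chr8:71537568-71537628, minus strand, 2 ISRE cores and 1 GAS): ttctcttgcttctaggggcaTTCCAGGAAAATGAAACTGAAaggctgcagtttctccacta
The ISRE core was found for 3 of the 9 members past the threshold in any comparison (B2m, Ifitm2 and Ifitm3) and for 13 of the 21 others with a window, and 5 of the 9 held neither motif. A match is a string of letters and was not tested as a binding site.

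Levels differed widely among the members. Since a QuantSeq read marks a transcript's end, CPM does not grow with transcript length. Levels of different genes still depend on how reads that match several genes were counted, which is not given in the sources used here. B2m, the invariant light chain of MHC class I, had the highest mean over the 12 libraries at 103 CPM, followed by Tapbp (tapasin, which holds MHC class I at the peptide transporter) at 92.7 CPM and Irf3 at 31.02 CPM. The range over the 12 libraries was 59.1 to 165 CPM for B2m and 68.6 to 121 CPM for Tapbp. The heavy chain H2-D1 averaged 24.6 CPM and the heavy chain H2-K1 8.67 CPM. At the lower end were Usp18, which removes ISG15 from proteins, at 0.992 CPM, Rsad2 (viperin) at 0.930 CPM and Gbp2 at 0.738 CPM. Mx1, a dynamin-like antiviral GTPase, had 1 read in WT OIR replicate 2 and 3 reads in Casp1 KO OIR replicate 1 and none elsewhere, too few for a fold change. For Isg15, the ubiquitin-like modifier at the head of most interferon signatures, 0 reads allow a level of up to 0.134 CPM in the deepest library and up to 0.872 CPM in the shallowest, by counting error alone. None of the 75-base stretches in the last 500 bases of the Isg15 transcript occur in another gene, whereas 46.0% of those of Oas1a recur in Oas1g.

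**Figure D1:**
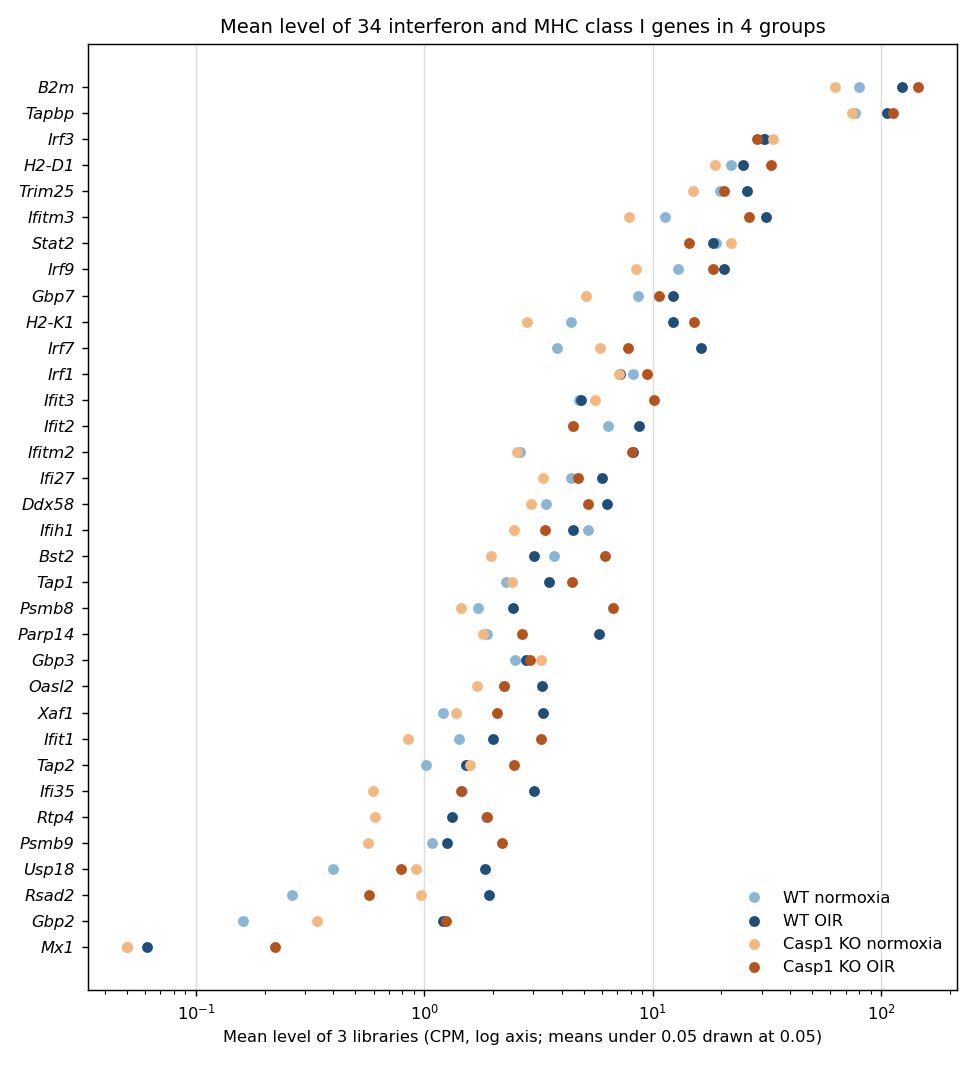
Mean level of the 34 detected genes in each of the 4 groups (points; CPM on a log axis, n = 3 libraries a group; means under 0.05 are drawn at 0.05). B2m and Tapbp lie highest, and the OIR points lie to the right of the normoxia points for most genes, among them H2-K1 with 4.40 and 2.83 CPM in normoxia and 12.2 and 15.2 CPM in OIR.

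In WT retinas, OIR was compared with normoxia to ask which of these genes differ 3 days after the return to room air. Of the 34 members with reads, 5 rose and none fell at an adjusted p under 0.05: Ifitm3, Irf7, B2m, H2-K1 and Ifitm2. For comparison, 1.58% of the 22853 genes tested rose in this fit, and the 886 genes called in either direction came to 545 without WT normoxia replicate 1, 580 without replicate 2 and 581 without replicate 3. The fit was edgeR's quasi-likelihood test on the counts, with Benjamini-Hochberg adjustment over all genes tested. By level alone, 12 of the 34 had all 3 OIR libraries above all 3 normoxia libraries and none had the reverse, beside 8.53% of all genes in the higher direction. Over the 33 members with some library above 3 reads, the median log2 fold change was 0.54, with 26 fitted higher and 7 lower, beside a median of 0.01 over all genes. The members were chosen with earlier results of these data known, so shares set beside all genes describe the set and do not test it.

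In retinas labelled Casp1 KO the same comparison gave 8 members that rose and none that fell, of 34: B2m, Ifitm3, H2-K1, Tapbp, H2-D1, Irf9, Psmb8 and Ifitm2. Here 2.61% of the 22387 genes tested rose. Without Casp1 KO normoxia replicate 1 or without Casp1 KO OIR replicate 2 the count was 5, with H2-D1, Irf9, Psmb8 and Ifitm2 the members that each lost their call in 1 or both. For 18 of the 34 every OIR library was above every normoxia library, and for none the reverse, beside 8.56% of all genes. The median log2 fold change of the 33 members was 0.83, with 28 fitted higher and 5 lower. Over both genotypes together, with genotype as a covariate and all 12 libraries, 7 members rose and none fell (B2m, Ifitm3, H2-K1, Tapbp, Ifitm2, Irf7 and Irf9), beside 2.32% of the 24484 genes tested, and the median of the 33 was 0.78. In a bulk retina, a change in the number of cells of a type and a change in RNA per cell cannot be told apart.

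Among the sensors and transcription factors, Irf7 and Irf9 rose. Irf7, the interferon regulatory factor that amplifies type I interferon, stood in WT normoxia at 6.93, 2.94 and 1.52 CPM and in WT OIR at 16.2, 12.9 and 19.8 CPM. The groups did not overlap, and the log2 fold change was 2.11 (SE 0.38, adjusted p = 5.8e-06, edgeR). The normoxia libraries labelled Casp1 KO held 4.74, 7.84 and 5.07 CPM and the OIR libraries 7.11, 10.9 and 5.35 CPM, which overlapped, with a log2 fold change of 0.43 (SE 0.43, adjusted p = 0.668, edgeR). Over both genotypes Irf7 rose by 1.30 on the log2 scale (SE 0.30, adjusted p = 0.00078, edgeR).

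Irf9, the DNA-binding partner of STAT2, gave the call in the other genotype. It stood at 12.97, 14.95 and 10.9 CPM in WT normoxia and 23.5, 18.4 and 19.6 CPM in WT OIR, without overlap, but did not pass the test (log2 fold change 0.63, SE 0.28, adjusted p = 0.272, edgeR). In libraries labelled Casp1 KO it went from 8.75, 5.81 and 10.9 CPM to 15.6, 19.9 and 19.5 CPM and rose by 1.11 on the log2 scale (SE 0.31, adjusted p = 0.011, edgeR). Over both genotypes its log2 fold change was 0.86 (SE 0.22, adjusted p = 0.0027, edgeR). Irf9 shares its strand with the overlapping gene Rnf31, and Irf7 is overlapped by Phrf1 on the other strand. No 75-base end stretch of either recurs in another gene. What the overlaps do to the counts was not tested.

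The other 6 of this group passed in no comparison of OIR with normoxia. Stat2, partner of Irf9, ran from 11.8 to 28.4 CPM and was fitted lower in OIR in libraries labelled Casp1 KO (log2 fold change -0.61, SE 0.26, adjusted p = 0.215, edgeR). Irf3, which is activated by phosphorylation rather than by its own induction, ran from 21.6 to 36.02 CPM, and Irf1, a transcription factor that interferon gamma induces, from 3.62 to 10.5 CPM. Ddx58 ran from 2.01 to 10.04 CPM, Ifih1 from 1.21 to 7.83 CPM, and Trim25, the ubiquitin ligase that activates RIG-I, from 12.8 to 30.9 CPM.

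Of the antiviral effectors, Ifitm3 and Ifitm2 rose in both genotypes. The IFITM proteins sit in membranes and hinder the fusion of viruses with the cell. Ifitm3 stood at 8.88, 9.48 and 15.7 CPM in WT normoxia and 46.5, 31.1 and 15.99 CPM in WT OIR. The groups touched without overlapping, since WT OIR replicate 3 lay just above the highest normoxia library, and the log2 fold change was 1.47 (SE 0.26, adjusted p = 3.9e-06, edgeR). In libraries labelled Casp1 KO the levels were 8.02, 10.2 and 5.55 CPM in normoxia and 28.0, 24.5 and 26.9 CPM in OIR, a closer set, with a log2 fold change of 1.76 (SE 0.28, adjusted p = 8.9e-08, edgeR).

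Ifitm2 stood at 3.73, 2.85 and 1.30 CPM in WT normoxia and 7.35, 8.47 and 8.90 CPM in WT OIR (log2 fold change 1.61, SE 0.51, adjusted p = 0.044, edgeR). In libraries labelled Casp1 KO it stood at 2.92, 3.78 and 0.966 CPM in normoxia and 9.56, 9.20 and 5.55 CPM in OIR (log2 fold change 1.68, SE 0.51, adjusted p = 0.028, edgeR). Neither pair of groups overlapped. The WT call was lost when any 1 of the 6 libraries was left out, and 32.6% of the end stretches of Ifitm2 recur in Gm45717, which overlaps it, and in 3 other annotated genes, so its reads are uncertain.

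The other 16 effectors with reads passed in no comparison of OIR with normoxia, although edgeR's newer quasi-likelihood method called Parp14 in WT and over both genotypes, Gbp7 over both, and Bst2 in libraries labelled Casp1 KO, and left-out libraries brought in Bst2 (without Casp1 KO normoxia replicate 2) and Gbp7 (over both genotypes without WT normoxia replicate 3). Closest in WT was Parp14, a mono-ADP-ribosyltransferase, at 3.02, 1.74 and 0.870 CPM in normoxia and 5.39, 4.42 and 7.63 CPM in OIR, without overlap (log2 fold change 1.61, SE 0.62, adjusted p = 0.154, edgeR). Xaf1, a pro-apoptotic interferon target, ran from 0.888 to 1.42 CPM in WT normoxia and from 2.91 to 3.92 CPM in WT OIR, and it too did not pass (adjusted p = 0.500, edgeR). Rsad2 had 2, 0 and 2 reads in WT normoxia against 10, 11 and 7 in WT OIR, at an adjusted p of 0.413 in edgeR, and 12, 0 and 3 against 0, 5 and 3 reads in libraries labelled Casp1 KO. All 3 of these genes had non-overlapping groups in WT.

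In libraries labelled Casp1 KO the closest was Bst2 (tetherin, which holds budding virions on the cell). It stood at 2.19, 3.20 and 0.483 CPM in normoxia and 6.45, 7.45 and 4.73 CPM in OIR (log2 fold change 1.68, SE 0.60, adjusted p = 0.089, edgeR), while the WT levels of 5.68, 3.03 and 2.39 CPM in normoxia and 4.65, 3.498 and 0.909 CPM in OIR overlapped. Gbp7, a guanylate-binding GTPase, was next, at 4.01, 3.78 and 7.49 CPM against 10.005, 11.4 and 10.7 CPM (log2 fold change 1.08, SE 0.41, adjusted p = 0.118, edgeR). Both sets of groups were apart in these libraries. The IFIT genes, whose proteins bind viral RNA, had no call: Ifit1 ran from 0.483 to 4.38 CPM, Ifit2 from 3.29 to 13.4 CPM and Ifit3 from 1.95 to 11.3 CPM over the 12 libraries. With the label Casp1 KO, Ifit1 was higher in OIR without overlap, at 0.912, 1.16 and 0.483 CPM against 2.22, 4.38 and 3.09 CPM. Its normoxia levels rest on 2 to 5 reads. Ifit3 was apart there too, at 4.01, 6.68 and 6.04 CPM against 10.2, 8.76 and 11.3 CPM. Ifit2 overlapped there, and so did each IFIT gene in WT.

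**Figure D2:**
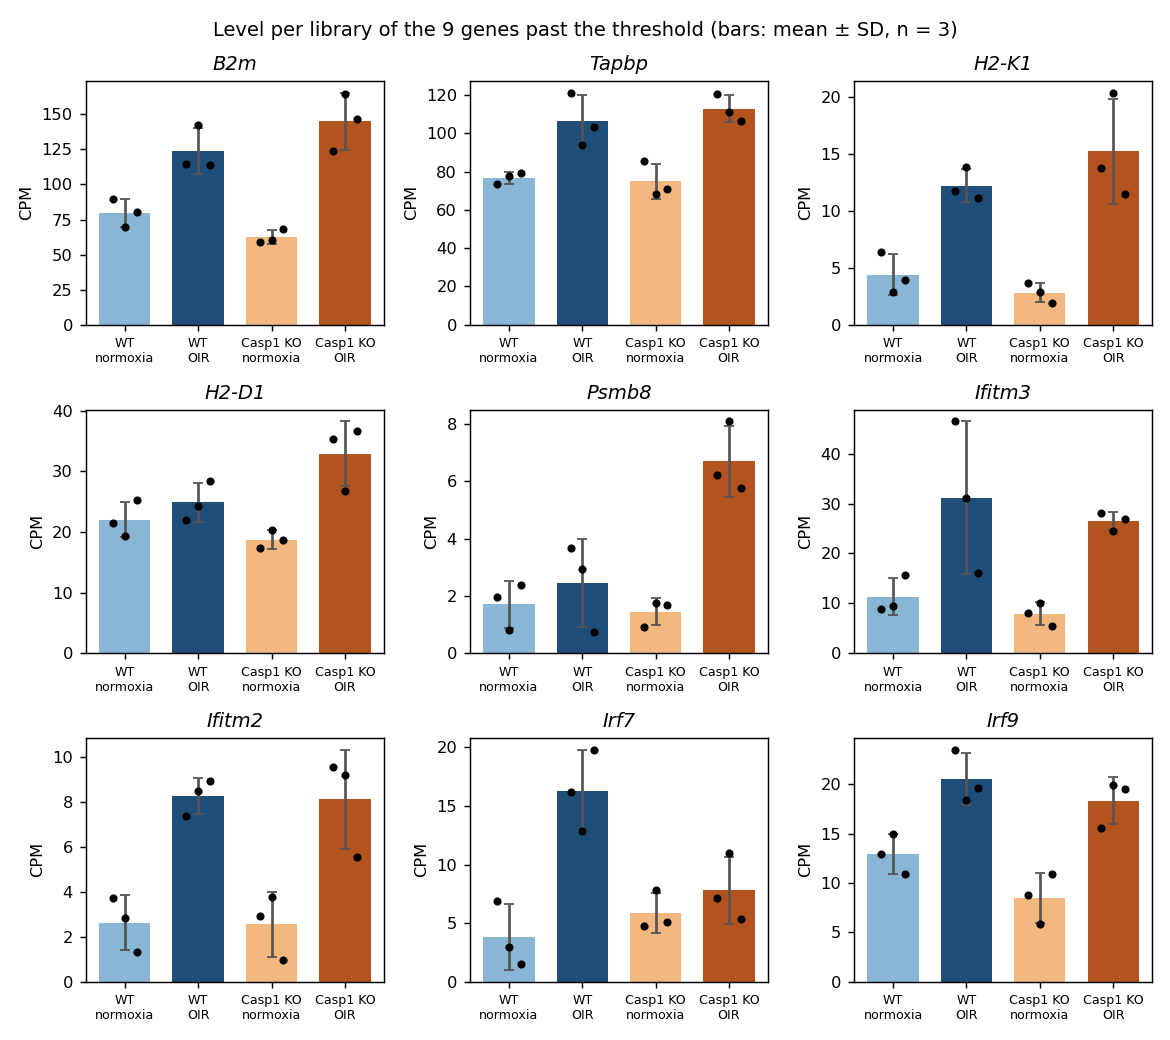
Level in each library (points, CPM) of the 9 genes that passed the threshold in some comparison of OIR with normoxia, with bars at the mean and error bars of 1 SD (n = 3). H2-K1 and B2m are higher in all OIR libraries of both genotypes, Irf7 is high in WT OIR (12.9 to 19.8 CPM) and overlaps between the groups labelled Casp1 KO, and Psmb8 is high in Casp1 KO OIR (5.76 to 8.10 CPM).

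All 8 MHC class I genes were fitted higher in OIR in each genotype, and 2 rose in WT and 5 in libraries labelled Casp1 KO. Of all genes with some library above 3 reads, 10168 of 20038 were fitted higher in WT and 9675 of 19194 with the label Casp1 KO. The shares of all genes tested that rose were 1.58% and 2.61%. B2m stood at 89.7, 69.6 and 80.5 CPM in WT normoxia and at 115, 143 and 114 CPM in WT OIR, a log2 fold change of 0.62 (SE 0.15, adjusted p = 0.0021, edgeR). The libraries labelled Casp1 KO held 59.1, 60.7 and 68.3 CPM in normoxia and 124, 165 and 146 CPM in OIR, a log2 fold change of 1.22 (SE 0.12, adjusted p = 3.8e-21, edgeR). Every OIR library exceeded every normoxia library of either genotype. B2m is at chr2:122147686-122153083, a stretch that Patl2 overlaps on the other strand, and it had 209 to 1564 reads per library.

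H2-K1, a classical heavy chain, stood at 6.39, 2.89 and 3.91 CPM in WT normoxia and 11.8, 13.8 and 11.1 CPM in WT OIR (log2 fold change 1.502, SE 0.41, adjusted p = 0.011, edgeR). With the label Casp1 KO it went from 3.65, 2.90 and 1.93 CPM to 13.8, 20.4 and 11.5 CPM (log2 fold change 2.41, SE 0.41, adjusted p = 4.1e-07, edgeR), the largest fold among the members that rose, 5.32-fold. Without WT normoxia replicate 2, the deepest library, or without WT OIR replicate 2, neither B2m nor H2-K1 passed in WT and the count of members fell to 2, Ifitm3 and Irf7. H2-K1 shares 4.31% of its end stretches with other class I genes.

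H2-D1, the other classical heavy chain, had no call in WT. Its levels of 21.5, 19.4 and 25.2 CPM in WT normoxia and 22.04, 24.3 and 28.3 CPM in WT OIR overlapped (log2 fold change 0.18, SE 0.24, adjusted p = 0.771, edgeR). With the label Casp1 KO it rose from 17.3, 20.3 and 18.6 CPM to 35.4, 26.7 and 36.6 CPM (log2 fold change 0.83, SE 0.22, adjusted p = 0.0077, edgeR). H2-D1 shares 10.4% of its end stretches with other class I genes, among them H2-T23 and H2-Q1.

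Tapbp stood at 73.4, 77.7 and 79.4 CPM in WT normoxia and 121, 94.1 and 103 CPM in WT OIR, apart but not past the test (log2 fold change 0.46, SE 0.15, adjusted p = 0.069, edgeR). It rose in libraries labelled Casp1 KO, from 85.3, 68.6 and 71.0 CPM to 121, 111 and 107 CPM (log2 fold change 0.60, SE 0.12, adjusted p = 0.00012, edgeR). Without WT OIR replicate 3 Tapbp passed in WT too and Ifitm2 did not, so that the count in WT stayed at 5. Tapbp shares a strand with the overlapping Zbtb22 and 15.1% of its end stretches with that gene and Gm19412.

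The catalytic subunits of the immunoproteasome, Psmb8 and Psmb9, and the peptide transporter genes Tap1 and Tap2 lie side by side on chromosome 17, where 7 of the 36 members are. Psmb8 stood at 1.95, 0.801 and 2.39 CPM in WT normoxia and 3.67, 2.95 and 0.727 CPM in WT OIR, with overlap (log2 fold change 0.54, SE 0.90, adjusted p = 0.829, edgeR). The level in libraries labelled Casp1 KO rose from 0.912, 1.74 and 1.69 CPM to 6.23, 8.10 and 5.76 CPM (log2 fold change 2.23, SE 0.62, adjusted p = 0.012, edgeR), on 5 to 7 reads per library in normoxia and 28 to 37 in OIR. Gm20496, which overlaps it on the other strand, holds 14.03% of its end stretches. Psmb9 ran from 0 to 3.34 CPM, Tap1 from 0.581 to 5.39 CPM and Tap2 from 0 to 3.91 CPM over the 12 libraries, none with a call.

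**Figure D3:**
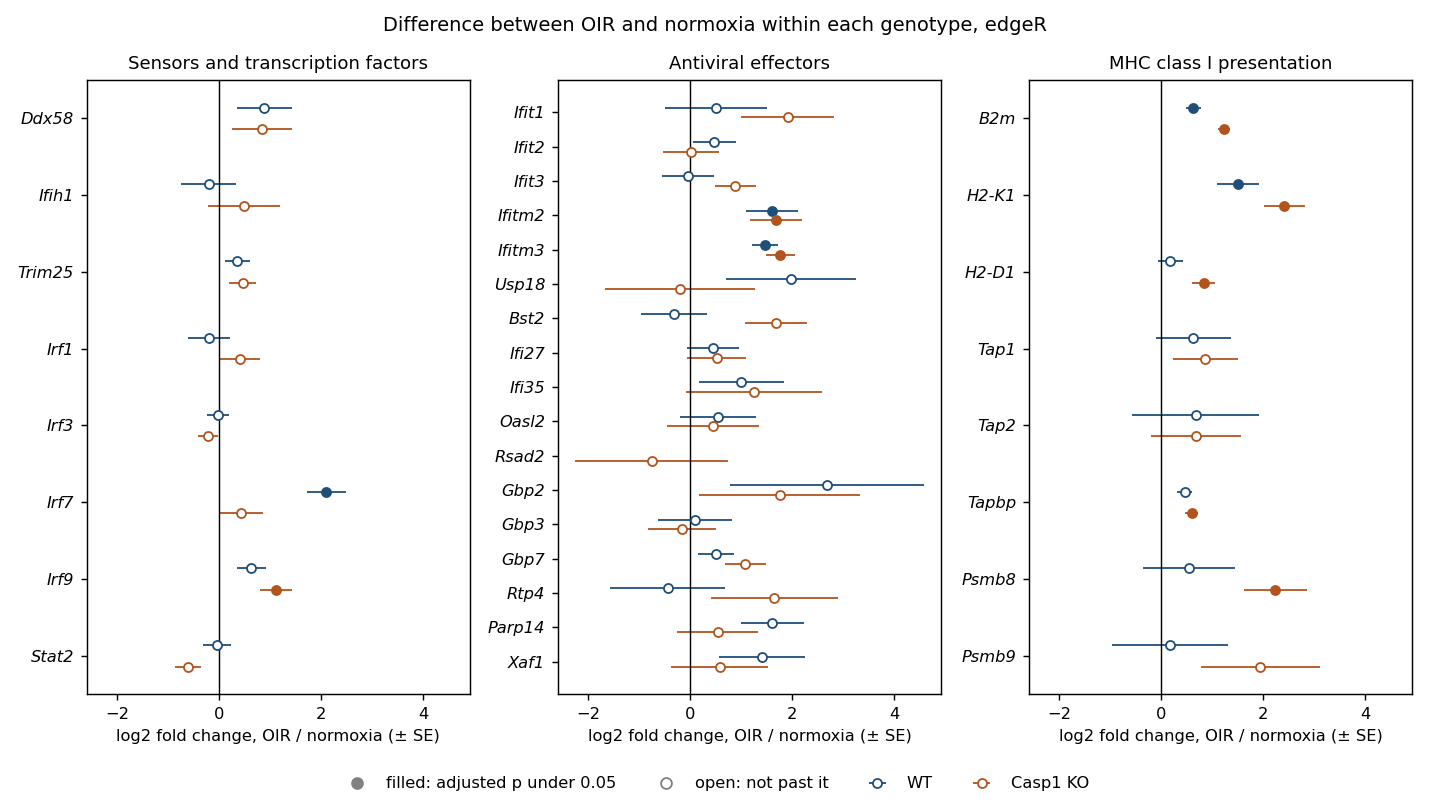
Log2 fold change of OIR against normoxia (x axis, ± SE) in WT and in libraries labelled Casp1 KO for the members of each role, with filled points past an adjusted p of 0.05 in edgeR. Mx1 and, in WT, Rsad2 are not drawn because a group held 3 reads or fewer in every library. The MHC class I genes all lie right of 0, Irf7 lies at 2.11 in WT and 0.43 in Casp1 KO, and low genes such as Gbp2 have wide bars.

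Whether the response differed between the genotypes was tested as an interaction over all 12 libraries. None of the 34 members passed, beside 1.13% of all genes in either direction, while 3 (8.82%) had an unadjusted p under 0.05 in edgeR, beside 9.77% of all genes. The share of all genes called was 2.46% without WT OIR replicate 3, 0.720% without WT OIR replicate 2 and 0.760% without Casp1 KO normoxia replicate 1, with no member called in these fits. DESeq2, the likelihood ratio test and edgeR's newer quasi-likelihood method called none either. The smallest p-values were those of B2m, whose log2 fold change was larger by 0.57 in libraries labelled Casp1 KO (SE 0.19, 95% interval 0.19 to 0.95, adjusted p = 0.147, edgeR), and of Irf7, whose value there was lower (difference -1.69, SE 0.58, interval -2.82 to -0.56, adjusted p = 0.152, edgeR). Without WT normoxia replicate 1, which has the highest normoxia level of Irf7 in WT, the Irf7 difference was -2.32 with an adjusted p of 0.032 in edgeR. Next were Bst2 with a difference of 1.98 (SE 0.90, adjusted p = 0.426, edgeR) and H2-D1 with 0.62 (SE 0.33, adjusted p = 0.534, edgeR). A call in 1 genotype and not in the other, as for Irf7, Irf9, H2-D1, Tapbp and Psmb8, is therefore not shown to be a difference between them.

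Between genotypes within a condition, no member passed either. In normoxia 1.04% of all genes tested passed and none of the 33 members with reads, 1 of which had an unadjusted p under 0.05 in edgeR (3.03%, beside 8.63% of all genes). Of all genes, 0.646% were called without Casp1 KO normoxia replicate 2 and 0.583% without replicate 3 of that group. The member was B2m, fitted lower in libraries labelled Casp1 KO (log2 fold change -0.34, SE 0.13, adjusted p = 0.340, edgeR), with non-overlapping groups as given above. Irf9 (-0.61, SE 0.33, adjusted p = 0.634), Ifih1 (-1.08, SE 0.61, adjusted p = 0.650) and Gbp7 (-0.74, SE 0.43, adjusted p = 0.660) came next by p in edgeR, with the log2 fold change given first in each bracket.

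In OIR 0.575% of all genes passed and none of the 34 members, with 4 at an unadjusted p under 0.05 in edgeR (11.8%, beside 8.36% of all genes). By level alone, 7 of the 34 (20.6%) were lower in Casp1 KO OIR than in WT OIR without overlap, beside 6.52% of all genes. Higher without overlap were 3 (8.82%), beside 5.41% of all genes. Without WT OIR replicate 3, the library that stands apart, 3.65% of all genes were called and still none of the members. Leaving out any 1 of WT OIR replicate 2 and the 3 Casp1 KO OIR libraries gave 0.213% to 0.323%. Irf7 was fitted lower in Casp1 KO OIR than in WT OIR, without overlap (log2 fold change -1.06, SE 0.34, adjusted p = 0.132, edgeR). Psmb8 was fitted higher (1.47, SE 0.57, adjusted p = 0.325, edgeR), as was Ifit3, at 10.2, 8.76 and 11.3 CPM against 4.90, 3.68 and 6.00 CPM (1.05, SE 0.43, adjusted p = 0.372, edgeR). Ifit2 was fitted lower (-0.97, SE 0.45, adjusted p = 0.505, edgeR), so the IFIT genes did not lean to 1 side. With both conditions together 0.335% of all genes and none of the members passed, and 1.01% and again no member without WT OIR replicate 3, while 0.182% to 0.210% of all genes passed without WT normoxia replicate 2, WT OIR replicate 1 or 2, or Casp1 KO normoxia replicate 3. The smallest p-values were those of Ifit2 (-0.73, SE 0.35, adjusted p = 0.682) and Trim25 (-0.38, SE 0.18, adjusted p = 0.705), the 2 at an unadjusted p under 0.05 in edgeR (5.88%, beside 6.79% of all genes), ahead of Ifitm3 (-0.35, SE 0.20, adjusted p = 0.759) and Ifit3 (0.59, SE 0.33, adjusted p = 0.759). DESeq2, the likelihood ratio test and the newer quasi-likelihood method called no member in these 3 comparisons. The intervals are wide, and a p that misses the threshold does not show equal levels.

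Summed levels show where the reads of these genes lie. The 8 MHC class I genes together held 174 to 199 CPM in WT normoxia, 264 to 284 CPM in WT OIR, 158 to 169 CPM in Casp1 KO normoxia and 309 to 339 CPM in Casp1 KO OIR. The 18 effectors with reads held 51.3 to 62.4 CPM and 74.5 to 122 CPM in the WT groups, and 38.6 to 47.4 CPM and 88.4 to 91.8 CPM in those labelled Casp1 KO. The OIR libraries were above the normoxia libraries of the same genotype in both sums, by the narrowest margin for the effectors in WT, where replicate 3 was lowest. The sensors and transcription factors held 98.8 to 107 CPM and 121 to 146 CPM in WT but 90.1 to 103 CPM and 99.3 to 117 CPM with the label Casp1 KO, which overlapped.

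**Figure D4:**
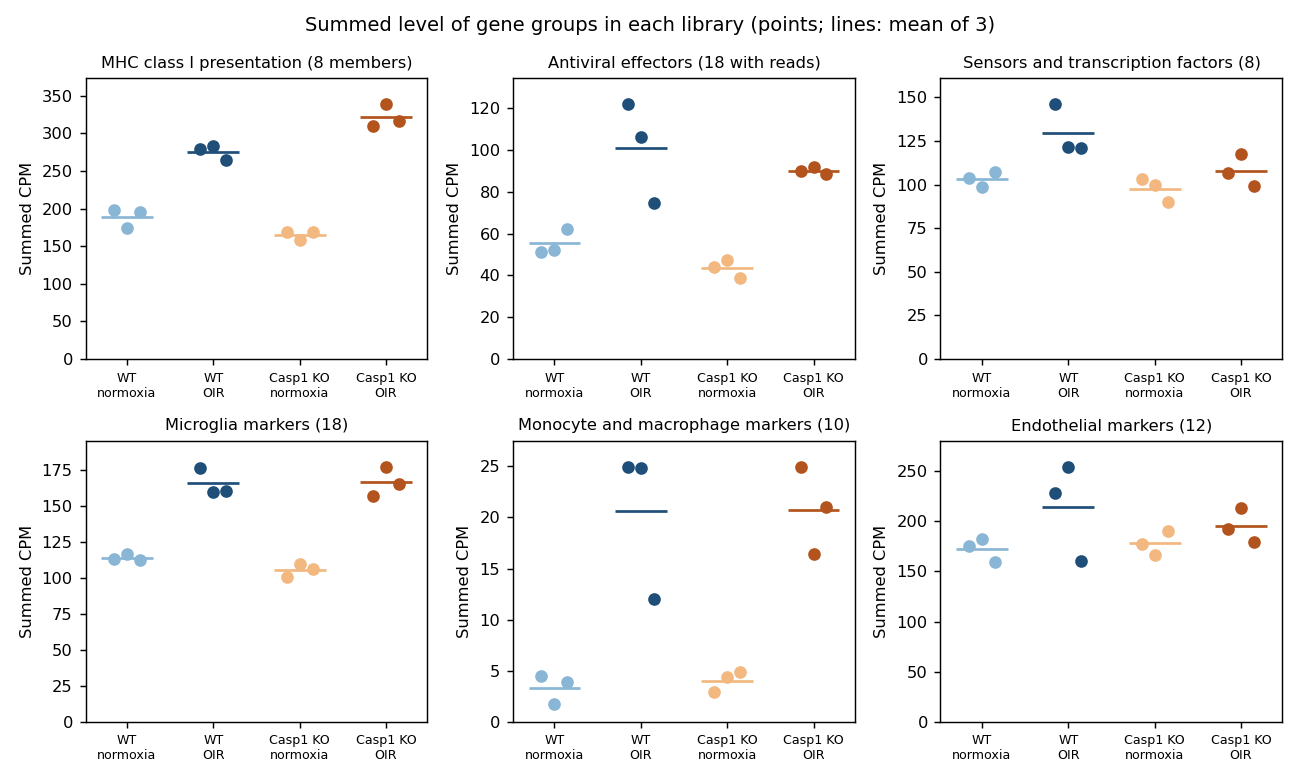
Summed CPM per library (points; lines at the mean of 3) for the 3 roles and for marker genes of microglia, of monocytes and macrophages, and of endothelial cells. The MHC class I sum and the microglia sum are higher in every OIR library than in any normoxia library, 264 to 339 against 158 to 199 CPM and 157 to 177 against 100 to 117 CPM.

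Summed markers of microglia, and of monocytes and macrophages, were also higher in OIR. All 18 microglia markers had reads, with a summed level of 113 to 117 CPM in WT normoxia, 160 to 176 CPM in WT OIR, 100 to 109 CPM in Casp1 KO normoxia and 157 to 177 CPM in Casp1 KO OIR. Of them C1qa and C1qc rose in WT and C1qa, C1qb and C1qc rose in libraries labelled Casp1 KO, by edgeR. Of all genes tested, 1.58% rose in WT and 2.61% with the label Casp1 KO. The microglia markers did not all go 1 way: 16 were fitted higher and 2 lower in WT, and 13 higher and 5 lower with the label Casp1 KO. The 10 monocyte and macrophage markers summed to 1.7 to 4.8 CPM in normoxia and 11.99 to 24.98 CPM in OIR, with Mrc1 and Pf4 rising in WT and Mrc1 in libraries labelled Casp1 KO. Of 10 markers of T, B and NK cells 6 had reads, at a sum of 0.6 to 4.5 CPM, with Cd3e, Nkg7, Gzma and Klrb1c at 0 in all libraries, and of 7 neutrophil markers 4 had reads, with Ly6g, Mpo and Camp at 0. In libraries labelled Casp1 KO, the sums of Muller glia markers (2088 to 2245 CPM in normoxia, 3162 to 3360 CPM in OIR), retinal pigment epithelium markers (556 to 604 and 921 to 1011 CPM) and lens markers (408 to 450 and 704 to 811 CPM) were also higher in OIR. Fitted higher there were 7 of 9 Muller glia markers, 8 of 9 retinal pigment epithelium markers and 7 of 7 lens markers. In WT the sum of the Muller glia markers was lower in OIR, 2887 to 3036 CPM in normoxia and 2458 to 2547 CPM in OIR. The markers were split, with 4 fitted higher and 5 lower. The sum of the retinal pigment epithelium markers was higher in OIR in WT too, at 534 to 536 CPM in normoxia and 541 to 706 CPM in OIR. Of these markers 6 were fitted higher and 3 lower. Lens markers overlapped in WT (425 to 477 and 255 to 566 CPM). Retinal ganglion cell markers were lower in OIR in both genotypes, with 1990 to 2181 CPM in WT normoxia, 1041 to 1296 CPM in WT OIR, 2198 to 2377 CPM in Casp1 KO normoxia and 1291 to 1325 CPM in Casp1 KO OIR. In WT the red blood cell markers were at 121 to 146 CPM in normoxia and 90.9 to 397 CPM in OIR. The part of any of these in the results for the 36 genes was not tested.

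The rest of the pathway was read from lists of other interferon and presentation genes, of which 108 were tested in WT and 105 with the label Casp1 KO. In WT 1 of them rose, and with the label Casp1 KO 4 rose, beside 1.58% and 2.61% of all genes. None fell in either. An unadjusted p under 0.05 in edgeR was held by 14.8% in WT, beside 12.6% of all genes. With the label Casp1 KO it was held by 9.52%, beside 13.6% of all genes. Upstream, 19 of 21 interferon genes had no read, Ifnl2 had 1 read in WT OIR replicate 2, and Ifnk had reads in Casp1 KO normoxia replicate 2 alone. The 13 receptors, kinases and further transcription factors all had reads, and none passed in either genotype by edgeR, with 3 of 13 in WT and 1 of 12 with the label Casp1 KO at an unadjusted p under 0.05, beside 12.6% and 13.6% of all genes. Irf8, a factor of myeloid cells, passed over both genotypes (log2 fold change 1.58, SE 0.38, adjusted p = 0.0016, edgeR), at 1.65 to 3.70 CPM in normoxia and 5.11 to 11.8 CPM in OIR.

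Of the 7 inhibitors, Socs3, which blocks JAK kinases, rose in libraries labelled Casp1 KO (log2 fold change 1.81, SE 0.43, adjusted p = 0.0016, edgeR) and over both genotypes (1.39, SE 0.33, adjusted p = 0.0012). The table lists 60 further effectors, and 57 of them had reads, and in WT none passed in edgeR, with 7 of the 56 tested (12.5%) at an unadjusted p under 0.05, beside 12.6% of all genes. In libraries labelled Casp1 KO 1 of the 53 tested rose, Daxx, a histone chaperone (log2 fold change 0.41, SE 0.13, adjusted p = 0.029, edgeR). There 5 of the 53 (9.43%) had an unadjusted p under 0.05 in edgeR, beside 13.6% of all genes. Cmpk2, a mitochondrial nucleotide kinase, was the 1 gene of these lists that fell over both genotypes (log2 fold change -0.98, SE 0.31, adjusted p = 0.041, edgeR), from 7.46 to 10.4 CPM in normoxia to 3.92 to 5.45 CPM in OIR.

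Of presentation genes beyond the members, 1 of 17 of class I and 2 of 7 of class II rose over both genotypes, beside 2.32% of all genes. In WT the counts were 0 of 16 and 1 of 6, beside 1.58%. With the label Casp1 KO they were 1 of 17 and 1 of 7, beside 2.61%. H2-Q7, a non-classical heavy chain, rose in libraries labelled Casp1 KO, from 2, 0 and 1 reads to 10, 27 and 19 reads (adjusted p = 0.0044, edgeR), and over both genotypes (log2 fold change 2.45, SE 0.57, adjusted p = 0.0010, edgeR). In WT it went from 2.49, 1.16 and 1.74 CPM to 4.16, 5.52 and 6.18 CPM without a call (adjusted p = 0.210, edgeR). H2-Ab1, a chain of MHC class II, which antigen-presenting cells use, rose in both genotypes, from 1.30 to 1.42 CPM to 4.18 to 7.36 CPM in WT (log2 fold change 2.17, SE 0.65, adjusted p = 0.028, edgeR) and from 1.16 to 1.64 CPM to 6.58 to 9.42 CPM with the label Casp1 KO (2.51, SE 0.57, adjusted p = 0.00071, edgeR). Cd74, its chaperone, had no read in the 6 normoxia libraries and 1 to 7 in each OIR library, and passed over both genotypes (adjusted p = 0.039, edgeR). Between genotypes in normoxia, Calr, a chaperone of class I loading, was the only listed gene to pass and was lower with the label Casp1 KO (log2 fold change -0.32, SE 0.07, adjusted p = 0.0014, edgeR).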

How the data were processed

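Retinal RNA had been extracted with TRIZOL and made into Lexogen QuantSeq 3' forward libraries. The authors aligned the reads with STAR 2.7.5a to mm10 and counted them per gene with HTSeq 0.6.1, per the submitters' processing notes, and deposited the counts as whole numbers without normalization. The annotation, the strand setting of the count and the treatment of reads with several matches are not given in the sources used here. Libraries were grouped by their labels. The 36 members, their division by role and the further lists were chosen with earlier results of these data known.

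Counts were fitted in R 4.3.3 with edgeR 4.0.16 (TMM scaling; glmQLFit and glmQLFTest in the older quasi-likelihood form; Benjamini-Hochberg adjustment with a threshold of 0.05), keeping genes with at least 1 read among the libraries of the fit. Comparisons of 2 groups used their own 6 libraries, and the comparisons over both genotypes or conditions and the interaction used all 12. Standard errors were derived from the fold change and its statistic, with a prior count of 0.125, and intervals are 95%. CPM were computed on TMM-scaled library sizes. A gene with no library above 3 reads, the limit that a count of 0 allows, was given no fold change. Exact permutation of 3 against 3 libraries cannot go below 0.1 and was not used for calls. Statistics are given in full for members past the threshold in any comparison and for the 4 with the smallest p in each, and other listed genes are named where they passed. A few members and markers outside that rule were named after their values were seen (Rsad2, Xaf1, Mx1 and Isg15 among them). One gene of the further lists is not reported here.

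Alternatives were DESeq2's size factors or library size alone, DESeq2 1.42.0, the likelihood ratio test, edgeR's newer quasi-likelihood method, filterByExpr, a block for the replicate number, a joint fit of all 12 libraries, and each library left out in turn. The fits were tested on simulated counts. Promoter windows came from RefSeq, and gene positions and end stretches of 75 bases from GENCODE vM21.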

Additional observations from a re-analysis of the deposited data

How the results depend on the processing

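The members called higher in OIR in WT numbered 2 to 5 when 1 library was left out (2 without WT normoxia replicate 2 or WT OIR replicate 2), in libraries labelled Casp1 KO 5 to 8, and over both genotypes 11 with the newer quasi-likelihood method, which added H2-D1, Gbp7, Parp14 and Psmb8. That method also called Parp14 in WT and Bst2 with the label Casp1 KO. The interaction gave 0 to 1 member with a library left out, the 1 being Irf7 without WT normoxia replicate 1. No fitted direction reversed among the results compared. Ifitm3 and Irf7 in WT, and B2m, H2-K1, Ifitm3 and Tapbp in libraries labelled Casp1 KO, kept their call in all 14 alternatives, and the 7 members called over both genotypes kept theirs in all 19. Ifitm2 kept its call in 7 of 14 alternatives in WT (adjusted p 0.014 to 0.22, edgeR or DESeq2) and in 8 of 14 with the label Casp1 KO (0.016 to 0.21). B2m and H2-K1 in WT kept theirs in 12 of 14, and H2-D1, Irf9 and Psmb8 in 11 of 14. The replicate number does not pair these libraries: the correlation of deviations between libraries of the same number ran from -0.028 to 0.081 over 18 pairs, none above 0.1. With the replicate block the called members were the same genes in each comparison, 5 in WT, 8 with the label Casp1 KO and 7 over both genotypes. The cause of these changes was not tested, other than that a fit with a library left out holds fewer samples. Of the 34 members with reads, 14 fell to 3 reads or fewer in some library, where a difference may not be detectable.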

Other observations

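The deepest library, WT normoxia replicate 2, held 22815830 reads but listed 17975 genes with a read, beside 18021 in WT normoxia replicate 1 with 5631795 reads. Rtp4, a chaperone of receptors that interferon induces, had 0 reads in that deepest library and 20 in WT normoxia replicate 3, which held 4617509 reads. Rsad2 likewise had 0 reads there and 2 in each of the other WT normoxia libraries. Ifit3 had 199 reads there (8.86 CPM) and 11 and 16 reads (1.95 and 3.48 CPM) in the other 2. These values were singled out after they were seen.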
